A study of Homo sapiens with 4 samples.

Results

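The subject here is a set of 10 genes for the uptake and storage of fatty acids in lipid droplets: LPL, FABP4, FABP5, ACSL1, DGAT2, PLIN2, PLIN3, HILPDA, PNPLA2 and LIPA. They were chosen by name, as the rows of the deposited count table that carry these symbols, and all 10 were found among its 60662 rows. The choice was made with earlier results of these data known. RNA was sequenced from U937, an established human cell line of monocyte-like lymphoma cells, in 4 libraries. The PMA group was cultured for 72 h with PMA (phorbol 12-myristate 13-acetate) at 10 nM. This phorbol ester switches on protein kinase C and is used to turn such cells into macrophage-like ones. The untreated group was cultured for the same 72 h without it. Each group has 1 library from each of lots 1 and 2, so n = 2 per group. All values come from a single tumour line in culture, and the labels do not say whether the lots were grown separately, so every p-value measures how these 4 libraries spread, and that spread may be technical.

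Macrophages take up fatty acids that lipases release from lipoproteins, carry them on binding proteins, activate them with coenzyme A and store them as triglyceride in lipid droplets coated by perilipins. The stored fat is released again at the droplet surface by a lipase, while lipoprotein lipids that reach the lysosome are hydrolysed there. Lipid-filled macrophages, the foam cells of atherosclerotic plaques, are the best known outcome of this pathway.

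The PMA libraries held 35739833 counts in lot 1 and 50822971 in lot 2, and the untreated ones 54915928 and 41308603. Levels are given in normalised CPM (counts-per-million values with TMM-scaled library sizes). The macrophage-like state was checked on 12 monocyte and macrophage markers, of which 10 could be tested, 5 rose and none fell (ITGAX, CD14, ITGAM, CD68 and CD163; edgeR adjusted p of 0.0148 to 0.0310). MSR1 and MRC1 of this list were listed at 0 in every library. Markers of other cell types were mostly at 0: all 5 erythroid genes, 5 of 6 fibroblast genes, 4 of 5 epithelial genes and 4 of 5 T cell genes had no count in any library. The remaining T cell gene, TRAC, was at 7.33 and 26.3 CPM with PMA and at 0.285 and 0 CPM without it, and 5 B cell genes summed to 11.3 and 13.5 CPM with PMA and to 26.8 and 17.6 CPM without it; their part in the results that follow was not tested. Of the endothelial list, PECAM1, which leukocytes also express, rose and the other 5 were at 0. In these bulk samples a smaller share of cells that express a gene and less RNA per cell cannot be told apart.

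None of the 9 lipid genes that could be tested passed the threshold of the test over all genes, an adjusted p under 0.05 (edgeR, quasi-likelihood fit, Benjamini-Hochberg over 16451 genes). Even so, in normalised CPM 7 of the 9 had higher levels in both PMA libraries than in either untreated library. FABP4, LIPA and PLIN2 stood furthest apart. HILPDA was lower in both PMA libraries than in either untreated one, ACSL1 overlapped between the groups, and LPL was listed at 0 throughout.

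The background for these counts is that 6.30% of all tested genes were called in either direction, 4.29% higher and 2.02% lower with PMA. Levels that did not overlap between the groups were seen in 31.0% of all tested genes in the higher direction and in 29.4% in the lower one. At an unadjusted p under 0.05 by edgeR, 3 lipid genes qualified (PLIN2, FABP4 and LIPA), against 27.0% of all tested genes. DESeq2 called those 3 genes higher and limma-voom called PLIN2 and LIPA, with 0 called lower by either. DESeq2 called 13.2% of the genes it adjusted higher and 10.4% lower, and limma-voom called 6.98% of all tested genes higher and 3.87% lower. Of all tested genes, 37.7% were higher and 35.8% lower with PMA in both lots. Over the 8 lipid genes with counts in every library the median log2 fold change was 0.65, and over all 9 it was 0.78, beside −0.00044 for all genes tested. FABP4 entered the test through its PMA libraries alone.

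**Figure D1:**
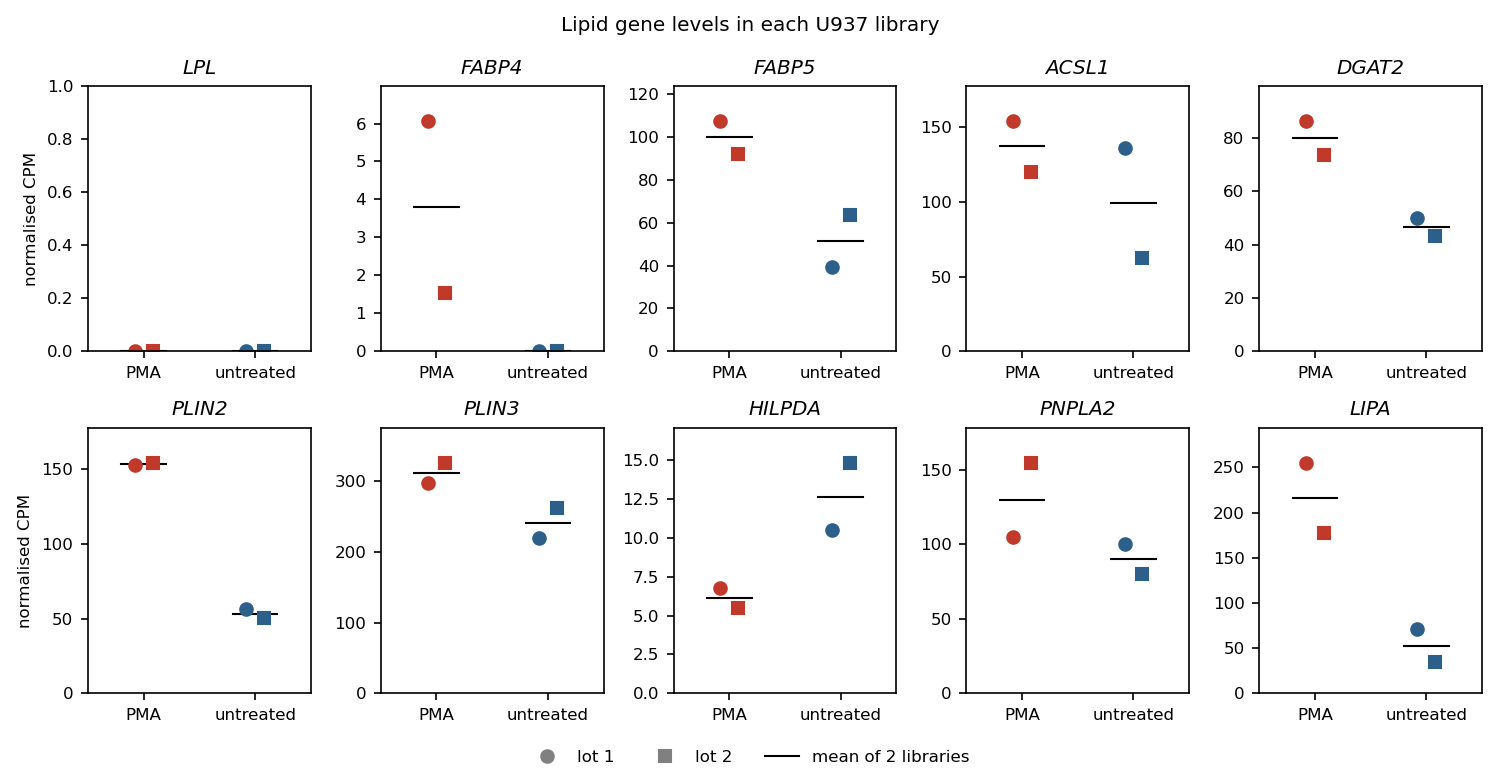
Normalised CPM (vertical axes, from 0, a separate scale for each gene) of the 10 lipid genes in the 2 PMA and the 2 untreated libraries. Circles are lot 1, squares are lot 2 and bars are group means. PLIN2 and LIPA are well above their untreated levels in both lots, FABP4 is at 0 in both untreated libraries, and ACSL1 overlaps between the groups.

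LPL (ENSG00000175445.17) encodes lipoprotein lipase, the secreted enzyme that frees fatty acids from triglyceride-rich lipoproteins. It was listed at 0 counts in all 4 libraries and was not tested. A count of 0 allows up to 3 counts, which corresponds to 0.0921 and 0.0649 CPM in the PMA libraries of lots 1 and 2 and to 0.0475 and 0.0695 CPM in the untreated ones. Such limits concern counting alone, and a 0 in this table may be an estimate that failed. The PMA library of lot 2 and both untreated libraries each held 1 to 3 genes at 0 whose level was 20 CPM or more everywhere else. The PMA library of lot 1 held none. Those genes were at 0 in 1 library alone, so they cannot decide whether LPL, at 0 in all 4, was such a case.

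FABP4 and FABP5 are small cytosolic proteins that carry fatty acids, known from adipocytes and macrophages and from the epidermis. FABP4 (ENSG00000170323.9) had 198 and 71 counts in the PMA libraries of lots 1 and 2, or 6.08 and 1.54 CPM, against 0 counts in both untreated libraries. Its mean PMA level was at least 65.1-fold higher than the floor of 3 counts per untreated library, at least 128-fold in lot 1 and at least 22.1-fold in lot 2. The PMA library of lot 1 was the higher one, and the untreated group did not reach a single count. The adjusted p of FABP4 was 0.0539 by edgeR and 1.03e-05 by DESeq2, and leaving out a library gave 0.199 without PMA replicate 1, 0.0265 without PMA replicate 2 and 0.0435 without untreated replicate 1. In the authors' deposited table FABP4 is the single lipid gene called, with a q-value of 0.00150, where 2.22% of all rows are called.

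The PMA libraries in which FABP4 was counted held no count of the adipocyte genes ADIPOQ, LEP, PLIN1, CIDEA or AQP7. Of 8 adipocyte genes in the table, 5 were at 0 in every library. The 8 summed to 69.7 and 65.8 CPM in the PMA libraries and to 46.4 and 56.6 CPM in the untreated ones, nearly all of it the widely expressed receptor ADIPOR2. GPD1, an enzyme of glycerol 3-phosphate synthesis, was at 3.10 and 1.34 CPM with PMA and at 0 without it (edgeR adjusted p = 0.0559). CIDEC, a further gene of this list, was not tested in the main fit. With no filter its log2 fold change was 6.56, higher with PMA (edgeR adjusted p = 0.395).

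FABP5 (ENSG00000164687.11) was at 107 and 91.9 CPM in the PMA libraries of lots 1 and 2, against 39.2 and 63.4 CPM in the untreated ones. The groups did not overlap, yet the ratio was 2.74 within lot 1 and 1.45 within lot 2, and the untreated libraries differed more from each other than the PMA libraries did. FABP5 had a log2 fold change of 0.96 ± 0.38 (SE, edgeR adjusted p = 0.193), with a 95% interval of −0.021 to 1.94.

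Reads of FABP5 are uncertain, since its processed pseudogenes are close to identical in sequence. The table lists 14 such entries, 9 of them above 0. They summed to 1052 and 1570 counts in the PMA libraries and to 603 and 788 counts in the untreated ones, which was 23.1% and 27.0% of FABP5 and copies together with PMA and 19.6% and 22.4% without it. Most of this was FABP5P7, at 27.5 and 26.9 CPM with PMA and at 8.04 and 14.3 CPM without it. With the copies summed into FABP5, an alternative chosen after seeing the data, the log2 fold change was 1.03 and the adjusted p 0.169 by edgeR.

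Neither ACSL1, which activates fatty acids, nor DGAT2, which completes triglyceride, passed the test. ACSL1 (ENSG00000151726.14), a long-chain acyl-CoA synthetase, was at 155 and 120 CPM in the PMA libraries of lots 1 and 2, against 136 and 62.5 CPM in the untreated ones. The untreated library of lot 1 lay above the PMA library of lot 2, so the groups overlapped. The ratio was 1.13 within lot 1 and 1.92 within lot 2, and the log2 fold change was 0.47 ± 0.47 (edgeR adjusted p = 0.590), with a 95% interval of −0.73 to 1.66. Without untreated replicate 1 the log2 fold change of ACSL1 was 1.07 (edgeR adjusted p = 0.0961), and without untreated replicate 2 it was 0.011 (edgeR adjusted p = 0.988).

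DGAT2 (ENSG00000062282.15) adds the last fatty acid to make triglyceride at the endoplasmic reticulum and the droplet. It was at 86.4 and 73.6 CPM with PMA, against 49.8 and 43.2 CPM in untreated cells. The ratios of the lots were close, 1.73 in lot 1 and 1.70 in lot 2. DGAT2 had a log2 fold change of 0.78 ± 0.33 (edgeR adjusted p = 0.211), with a 95% interval of −0.059 to 1.62.

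PLIN2 and PLIN3 coat lipid droplets; PLIN2 is found on droplets almost entirely, while PLIN3 also moves in the cytosol. PLIN2 (ENSG00000147872.10) was at 153 and 154 CPM in the PMA libraries of lots 1 and 2, against 56.3 and 50.5 CPM in the untreated ones. Replicates lay close together in both groups, and the ratio was 2.71 within lot 1 and 3.06 within lot 2. The log2 fold change was 1.52 ± 0.30, a fold of 2.88 with a 95% interval of 1.68 to 4.92. PLIN2 had the smallest adjusted p of the lipid genes (0.0531 by edgeR). Over the alternatives it ranged from 7.02e-05 with DESeq2 to 0.357 without PMA replicate 2, and it was 0.353 without PMA replicate 1 and 0.0385 without untreated replicate 1.

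PLIN3 (ENSG00000105355.9) was at 296 and 326 CPM in PMA-treated cells, against 219 and 262 CPM in untreated cells. The PMA library of lot 1 exceeded the untreated library of lot 2 by a small margin. PLIN3 had a log2 fold change of 0.37 ± 0.29 (edgeR adjusted p = 0.486), with a 95% interval of −0.37 to 1.12.

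PNPLA2, also known as ATGL, removes the first fatty acid from stored triglyceride, and HILPDA is a small hypoxia-induced droplet protein that inhibits it. PNPLA2 (ENSG00000177666.17) was at 105 and 155 CPM in the PMA libraries of lots 1 and 2, against 100.1 and 80.4 CPM in the untreated ones. Within lot 1 the ratio was 1.05, and within lot 2 it was 1.92. The log2 fold change was 0.52 ± 0.35 (edgeR adjusted p = 0.422), with a 95% interval of −0.38 to 1.43.

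HILPDA (ENSG00000135245.10) was at 6.75 and 5.49 CPM with PMA, against 10.5 and 14.8 CPM without it. It was lower with PMA in both lots, with ratios of 0.645 in lot 1 and 0.371 in lot 2. The log2 fold change was −1.05 ± 0.49 (edgeR adjusted p = 0.259), with a 95% interval of −2.31 to 0.22. These levels rest on 220 and 254 counts in the PMA libraries and 661 and 639 counts in the untreated ones.

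In GENCODE release 29 a pair of other entries overlaps the exons of HILPDA on the same strand. One of them, AC010655.4, had 66 and 0 counts with PMA and 0 and 159 counts without it, and the other, AC010655.2, had 0 and 81 counts with PMA and 0 and 31 without it. Each of these entries had counts in 2 of the 4 libraries. With them summed into HILPDA, chosen after seeing the data, the log2 fold change was −0.89 and the adjusted p 0.356 by edgeR.

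LIPA (ENSG00000107798.18) encodes lysosomal acid lipase, which hydrolyses the cholesteryl esters and triglycerides of lipoproteins taken up by the cell. It was at 255 and 178 CPM in the PMA libraries of lots 1 and 2, against 71.2 and 34.6 CPM in the untreated ones. The ratio was 3.59 in lot 1 and 5.14 in lot 2. The log2 fold change was 2.03 ± 0.48, a fold of 4.09 with a 95% interval of 1.75 to 9.59 (edgeR adjusted p = 0.0712). LIPA passed the threshold when the lot was a block (edgeR adjusted p = 0.0490). Over the alternatives its adjusted p ranged from 0.000566 with DESeq2 to 0.310 without PMA replicate 1, and it was 0.0257 without untreated replicate 1.

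The annotated span of LIPA in GENCODE release 29 contains the interferon-induced genes IFIT1, IFIT2 and IFIT3 on the opposite strand, and no source used here says whether the authors counted by strand. IFIT2 shares 65 of the 4910 exonic bases of LIPA. IFIT2 was at 66.6 and 134 CPM in the PMA libraries of lots 1 and 2, against 0.142 and 1.90 CPM in the untreated ones (edgeR adjusted p = 0.0572), while IFIT1 and IFIT3 rose (edgeR adjusted p = 0.0286 and 0.0387). Between the groups IFIT2 and LIPA were both higher with PMA, while within each group the lot with more IFIT2 had less LIPA. The part of these reads in the LIPA count was not tested.

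**Figure D2:**
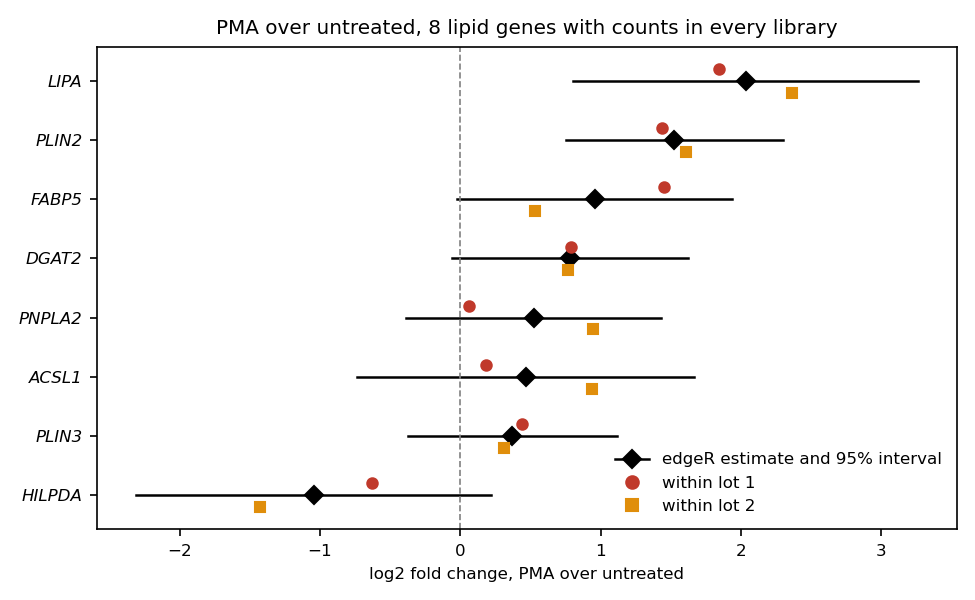
Log2 fold change of PMA over untreated cells (horizontal axis) for the 8 lipid genes with counts in every library; diamonds and lines are edgeR estimates with 95% intervals, circles and squares the ratios within lots 1 and 2. The intervals of LIPA and PLIN2 lie above 0, those of the other 6 genes include 0, and the ratios of both lots lie on the same side of 0 for each of the 8.

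Levels of different genes were compared after dividing counts by the length of the longest annotated transcript and scaling to each library's sum, which gives TPM (transcripts-per-million) values. On this scale PLIN3 was the most abundant of the set in both groups, at 264 ± 3.01 TPM with PMA and 229 ± 22.6 TPM without it (SD, n = 2), apart from the next gene in both. FABP5 followed at 201 ± 33.3 TPM with PMA and 113 ± 12.8 TPM without it. With PMA, FABP5, LIPA and PLIN2 followed each other with overlapping ranges, and PNPLA2, ACSL1 and DGAT2 came below them, each apart from its neighbours. Unlike in normalised CPM, PNPLA2 overlapped between the groups on the TPM scale. In lots 1 and 2 it was at 79.2 and 108 TPM with PMA and at 96.0 and 56.1 TPM without it. Within lot 1 PNPLA2 was thus lower with PMA in TPM, as was ACSL1 (77.7 against 86.9 TPM).

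In untreated cells PNPLA2, PLIN2, ACSL1 and LIPA stood in this order with overlapping ranges. LIPA thus held rank 3 with PMA, at 156 ± 47.7 TPM, and rank 6 without it, at 45.3 ± 30.6 TPM, in both cases with a range that overlapped its neighbour's. HILPDA was at 8.91 ± 1.78 TPM with PMA, beside FABP4, and at 20.3 ± 0.412 TPM without it, beside DGAT2. With the merged length of all exons in place of the longest transcript, PLIN3 remained first in both groups and PNPLA2 stood above PLIN2 with PMA. Without PMA, PNPLA2 stood above FABP5, ACSL1 and LIPA stood above PLIN2, which put LIPA at rank 5, and DGAT2 stood above HILPDA. Each pair that changed order, with or without PMA, had overlapping ranges on the merged-exon scale.

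**Figure D3:**
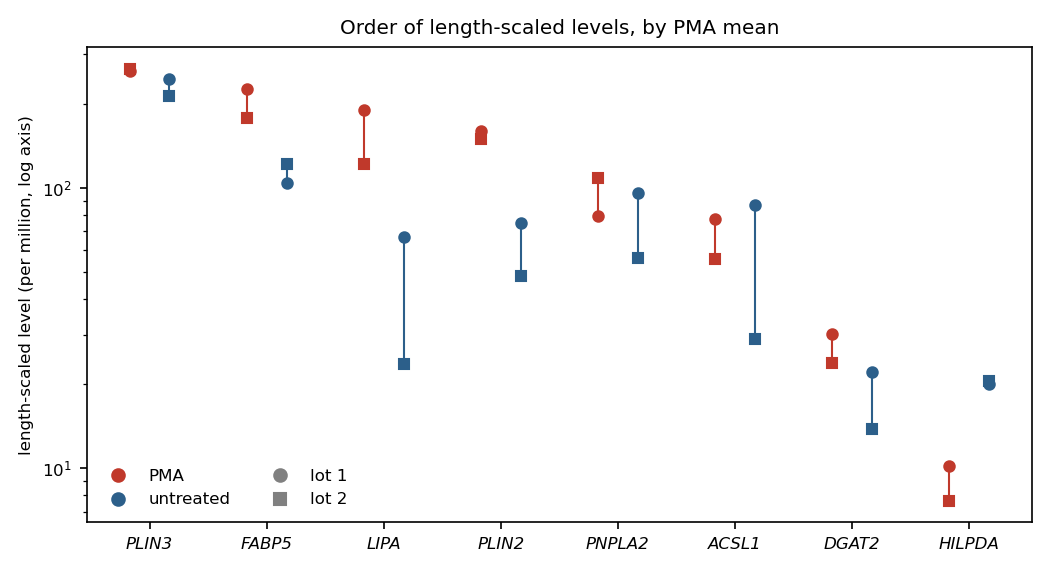
Length-scaled levels in TPM (vertical log axis) of 8 lipid genes, ordered by their PMA mean; circles are lot 1, squares lot 2, and each line joins the 2 libraries of a group. PLIN3 is highest in both groups, HILPDA is lower with PMA than without it, and the untreated libraries of ACSL1 and LIPA lie far apart.

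RefSeq promoter sequences of build GRCh38.p14 were searched for 5 of the 10 genes (PLIN2, PLIN3, LIPA, ACSL1 and PNPLA2) with 11 annotated starts. LPL, FABP4 and FABP5 were left out of the search by their chromosome, so nothing is said of their promoters. For DGAT2 and HILPDA no promoter sequence was available. The 250 bases before each start were searched on both strands for TGANTCA, the E-box CACGTG, and the direct repeat of the PPAR and RXR half-site. With N as any base, TGANTCA is wider than the phorbol ester response element that AP-1 binds, TGACTCA or TGAGTCA. A match to TGANTCA was found before 1 start of ACSL1, 47 bases upstream, as TGACTCA. The wider pattern was found in 6.59% of 34943 promoters of this length. The E-box was found before the start of PLIN2, 69 bases upstream, and in 6.32% of all. The direct repeat was found before none of the 11 starts, and in 0.0172% of all. No motif overlapped another. The ACSL1 stretch is shown because it holds the element named after phorbol esters, in capitals, and the PLIN2 stretch because PLIN2 had the smallest p; both are cut to the bases outside the gene's annotated exons, which for PLIN2 leaves the E-box out. A match is a description of letters, and ACSL1 overlapped between the groups.
ACSL1, chr4:184812260-184812501, minus strand: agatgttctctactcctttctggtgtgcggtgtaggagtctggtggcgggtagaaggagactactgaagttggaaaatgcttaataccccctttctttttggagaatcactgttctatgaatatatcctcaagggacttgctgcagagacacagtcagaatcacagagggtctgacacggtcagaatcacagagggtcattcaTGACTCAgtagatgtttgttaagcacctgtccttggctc
PLIN2, chr9:19127577-19127742, minus strand: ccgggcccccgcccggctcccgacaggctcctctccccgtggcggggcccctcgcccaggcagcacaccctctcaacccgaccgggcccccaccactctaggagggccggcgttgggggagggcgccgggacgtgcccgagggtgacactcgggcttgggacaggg

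Genes that act around these 10 were taken from 10 lists of lipid, lysosomal and hypoxia genes. These lists were chosen with earlier results of these data known, so the counts below describe them and do not test them. Among their genes 9 rose with PMA and none fell by edgeR. For this count and those below, edgeR called 4.29% of all tested genes higher and 2.02% lower. The shares were 13.2% and 10.4% of the genes DESeq2 adjusted, and 6.98% and 3.87% by limma-voom. At an unadjusted p under 0.05 by edgeR the share was 27.0%. Of 8 lysosomal genes tested, 2 rose and 6 did not pass by edgeR, while DESeq2 and limma-voom each called 5 higher. NPC1, which moves cholesterol out of the lysosome, was at 875 and 763 CPM with PMA, against 197 and 168 CPM without it (2.16 ± 0.30, edgeR adjusted p = 0.0292). SCARB2, a lysosomal membrane protein that carries glucocerebrosidase, was at 650 and 405 CPM, against 69.5 and 25.1 CPM in untreated cells (3.48 ± 0.63, adjusted p = 0.0455 by edgeR). The lysosomal phospholipase PLA2G15 did not pass (2.09 ± 0.44, edgeR adjusted p = 0.0584). The median log2 fold change of the 8 was 1.54, and all 8 were higher in both lots, as were 37.7% of all tested genes. Without PMA replicates 1 and 2 in turn the edgeR adjusted p of NPC1 was 0.111 and 0.0837, and for SCARB2 it was 0.0641 without PMA replicate 1.

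Of 12 genes of triglyceride and sterol ester synthesis tested, 1 rose and 11 did not pass by edgeR. DESeq2 called 5 higher and limma-voom called 1. GPAT3, which starts triglyceride synthesis from glycerol 3-phosphate, was at 112 and 63.4 CPM with PMA, against 2.58 and 1.90 CPM without it (5.29 ± 0.53, edgeR adjusted p = 0.0221). AGPAT4, an acyltransferase (edgeR adjusted p = 0.0761), and the phosphatidate phosphatase LPIN2 (1.72 ± 0.44, edgeR adjusted p = 0.0825) did not pass. Its median log2 fold change was 1.08 over the 12 genes.

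Of 5 regulators of lipoprotein lipase tested, 2 rose and 3 did not pass, beside an LPL count of 0. APOC2, its apolipoprotein activator, was at 145 and 187 CPM with PMA, against 7.12 and 11.5 CPM without it (4.16 ± 0.44, edgeR adjusted p = 0.0224). The protease FURIN, which can cleave the lipase, was at 628 and 539 CPM, against 125 and 106 CPM in untreated cells (2.34 ± 0.31, edgeR adjusted p = 0.0277). Without PMA replicates 1 and 2 in turn the edgeR adjusted p of FURIN was 0.0999 and 0.0749. LMF1, which matures the lipase in the endoplasmic reticulum, was at 6.97 and 10.2 CPM with PMA and at 18.1 and 12.6 CPM without it. The inhibitor ANGPTL4 and the endothelial anchor GPIHBP1 were listed at 0 in every library. Over the 5 genes the median log2 fold change was 1.05, and DESeq2 and limma-voom each called 2 of them higher.

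Of 7 PPAR, RXR and coactivator genes tested, 2 rose and 5 did not pass by edgeR. DESeq2 called 2 higher and 1 lower, and limma-voom called 2 higher. PPARD, a fatty acid-sensing nuclear receptor, was at 246 and 266 CPM with PMA, against 24.3 and 24.0 CPM without it (3.40 ± 0.31, edgeR adjusted p = 0.0202). Its partner RXRA was at 304 and 313 CPM, against 81.9 and 97.0 CPM in untreated cells (1.79 ± 0.30, edgeR adjusted p = 0.0393). RXRA lost the call when the lot was a block (edgeR adjusted p = 0.0535) and with upper-quartile factors (0.0551), and without PMA replicates 1 and 2 its edgeR adjusted p was 0.217 and 0.232. PPARG, the receptor known to drive FABP4 in adipocytes and macrophages, was at 61.4 and 65.3 CPM with PMA and at 51.0 and 19.4 CPM without it (edgeR adjusted p = 0.395). PPARG was named after its values were seen. The coactivator PPARGC1A was at 2.15 and 0.346 CPM, against 47.5 and 7.02 CPM in untreated cells (edgeR adjusted p = 0.114, or 0.0351 under the block, and 0.000682 with DESeq2). The list's median was 0.90.

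None of the 7 fatty acid uptake and transport genes tested passed, although CD36, the fatty acid and oxidised lipoprotein receptor, came near. CD36 was at 240 and 126 CPM with PMA, against 7.42 and 22.5 CPM without it (3.61 ± 0.71, edgeR adjusted p = 0.0523, and 2.20e-06 with DESeq2). Leaving out a library gave CD36 an adjusted p of 0.101 without PMA replicate 1, 0.0394 without PMA replicate 2, and 0.0344 and 0.0266 without untreated replicates 1 and 2 (edgeR). The transporter SLC27A1 was at 46.8 and 55.3 CPM, against 13.6 and 22.2 CPM in untreated cells (edgeR adjusted p = 0.0948). SLC27A5 had a log2 fold change of −2.51 ± 0.71 (edgeR adjusted p = 0.0978). The median was 0.85. By edgeR, 4 of these genes had an unadjusted p under 0.05, DESeq2 called 2 higher and 1 lower, and limma-voom called 1 higher.

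None of the 5 other acyl-CoA synthetases tested passed by edgeR, with 3 at an unadjusted p under 0.05. DESeq2 called 2 higher and 1 lower, and limma-voom called 1 higher. ACSL4, which prefers arachidonic acid, was at 981 and 624 CPM with PMA, against 141 and 40.2 CPM without it (3.15 ± 0.70, edgeR adjusted p = 0.0642, and 0.0391 under the block). ACSM3 was at 0.460 and 0 CPM, against 15.1 and 9.55 CPM in untreated cells. The acetyl-CoA synthetase ACSS2 was at 129 and 352 CPM, against 87.9 and 72.9 CPM. The median was 1.01.

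None of 12 other lipid droplet protein genes and none of 8 tested genes of the lipolysis list passed by edgeR, with 5 and 3 at an unadjusted p under 0.05. METTL7A, a droplet-associated methyltransferase-like protein, was at 70.3 and 33.7 CPM with PMA, against 9.18 and 3.71 CPM without it (edgeR adjusted p = 0.0649, and 0.0374 with the block). METTL7B was at 40.9 and 32.2 CPM, against 4.79 and 14.7 CPM, and HSD17B13 was at 0 in both PMA libraries and at 1.53 and 0.464 CPM in the untreated ones. Among the lipolysis genes, NCEH1, a hydrolase of cholesteryl esters, was at 112 and 54.8 CPM, against 18.3 and 13.1 CPM in untreated cells (edgeR adjusted p = 0.0589, and 0.04998 with the block, which passed). MGLL, which completes lipolysis, was at 218 and 260 CPM, against 137 and 83.4 CPM. LPCAT1, which this list also held, is an acyltransferase and not a lipase. It was at 38.8 and 36.7 CPM, against 59.1 and 85.5 CPM, and is among the 3 at an unadjusted p under 0.05. The hormone-sensitive lipase LIPE and the PNPLA2 inhibitor G0S2 were listed at 0 throughout. DESeq2 called 4 droplet genes higher and 1 lower and 2 lipolysis genes higher, and limma-voom called 1 of each list higher. The medians were 0.45 and 0.42.

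None of 16 fatty acid oxidation genes tested passed by edgeR, with 5 at an unadjusted p under 0.05. With PMA, 4 were higher and 9 lower in both lots, beside 37.7% and 35.8% of all tested genes. The trifunctional enzyme subunit HADHA was at 256 and 155 CPM with PMA, against 634 and 487 CPM without it (−1.45 ± 0.38, edgeR adjusted p = 0.0856). HADH was at 27.6 and 20.9 CPM, against 116 and 54.1 CPM in untreated cells, and the electron carrier subunit ETFA at 98.6 and 93.1 CPM, against 228 and 161 CPM. The median was −0.39. DESeq2 called 1 gene of this list higher and 4 lower, and limma-voom called 1 lower.

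Since HILPDA is known as a hypoxia target, other genes of that response were set beside it. Of 14 tested, 2 rose and none fell by edgeR, while DESeq2 called 7 higher and limma-voom called 3. All 14 were higher in both lots, beside 37.7% of all tested genes, with a median log2 fold change of 1.52, and HILPDA was lower in both lots. EPAS1, the subunit HIF-2 alpha, was at 168 and 93.9 CPM with PMA, against 16.0 and 7.88 CPM without it (3.45 ± 0.57, edgeR adjusted p = 0.0382). DDIT4, an inhibitor of mTOR signalling, was at 60.9 and 95.8 CPM, against 15.4 and 11.6 CPM in untreated cells (2.54 ± 0.43, edgeR adjusted p = 0.0398). NDRG1 did not pass (1.89 ± 0.42, edgeR adjusted p = 0.0632). DDIT4 lost the call when the lot was a block (edgeR adjusted p = 0.0590), and its edgeR adjusted p was 0.0855, 0.211 and 0.0525 without PMA replicates 1 and 2 and untreated replicate 2 in turn; for EPAS1 it was 0.0889 without PMA replicate 1.

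**Figure D4:**
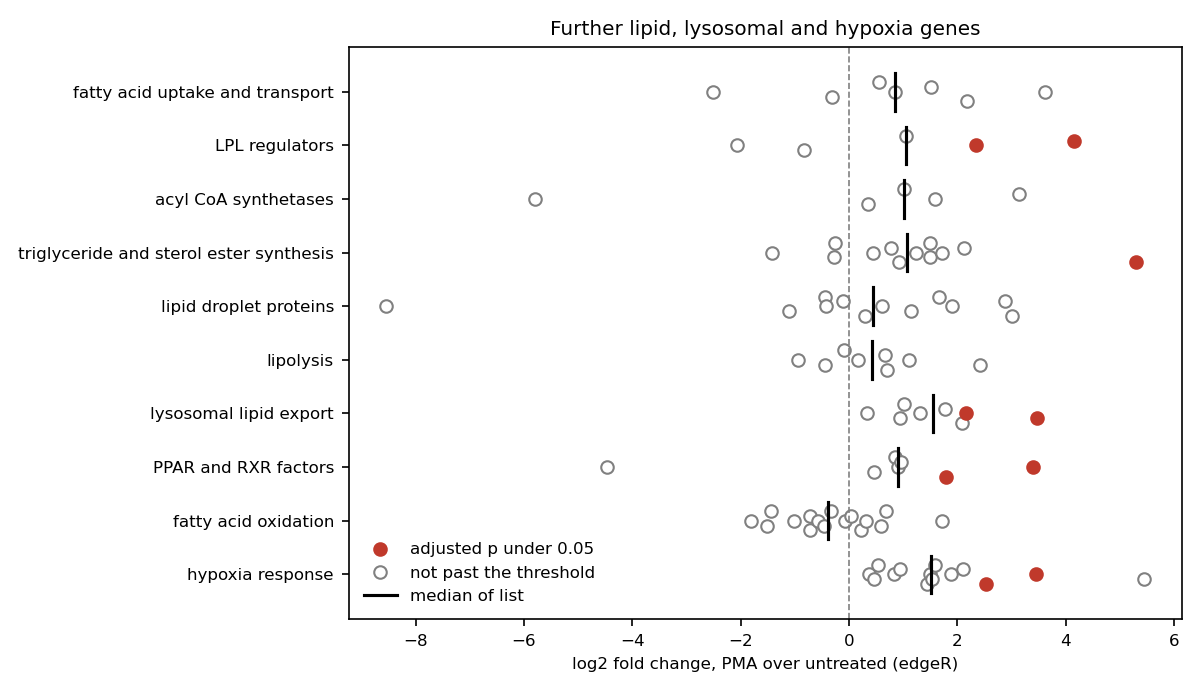
Log2 fold change of PMA over untreated cells (horizontal axis, edgeR) for each tested gene of the 10 further lists. Filled points passed an adjusted p under 0.05, open points did not, and vertical bars are list medians. The 9 filled points lie to the right of 0 and the median of fatty acid oxidation is the single one to the left; values of genes at 0 in a group, such as HSD17B13 at the far left, depend on the prior count.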

How the data were processed

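The 4 libraries were grouped by their titles. Poly(A) RNA was sequenced on an Ion Proton, per the labels' protocols. Per the submitters' processing notes, HISAT2 2.1.0 and StringTie 2.1.1 were used, in roles that are not stated. Strand handling, counting program, annotation and genome build were not given in the sources used here. What the authors deposited are estimated counts per gene, as whole numbers, so that rounding changed none. Their other deposited table holds a signal (the count times 1 factor per library), a log2 ratio and mean, a p-value and q-value, a rank score and a call per gene.

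From the counts, edgeR 4.0.16 (R 4.3.3) was run with TMM factors, filterByExpr by group and the quasi-likelihood test on all 4 libraries without a block, with Benjamini-Hochberg adjustment over 16451 genes. SE is the fold change over the root of F. Ratios within lots were taken from normalised CPM, and their log2 values with a prior count of 2. DESeq2 1.42.0 and limma-voom (limma 3.58.1) were alternatives, and the tests were tested on simulated data. The simulated spread between replicates was smaller than in these data, so that check does not cover the tests at the spread seen here. Lengths and overlaps came from GENCODE release 29, which may not be the authors' annotation. Libraries were paired by the lot number in their titles; the labels do not say what a lot is. Deviations from group means correlated at 0.154 within lots across genes, a single value, since both lots mirror each other with 2 libraries a group. The lists named up to 3 members each with the smallest p. Members and lists were chosen with earlier results of these data known. Of the adipocyte markers, TUSC5 was not matched.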

Additional observations from a re-analysis of the deposited data

How the results depend on the processing

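With 2 libraries per group the spread was large (a coefficient of variation of 0.626 by edgeR), and the number of lipid genes called moved with the method while no direction did: over 12 alternatives and 2 added after seeing the data, none of the 9 tested genes reversed. Against 0 called higher by edgeR, the count was 1 with no filter (FABP4), 2 at a minimum of 5 CPM in 2 libraries, where FABP4 was not tested (PLIN2 and LIPA), 3 with DESeq2, 2 with limma-voom, 1 with the lot as a replicate block (LIPA), and 0 to 3 when each library was left out in turn. Without PMA replicate 2 FABP4 was called, and without untreated replicate 1 FABP4, PLIN2 and LIPA were. None was called lower in any of these, and the cause of the differences was not tested. Over all genes, 705 higher and 332 lower calls compare with 2127 and 1684 by DESeq2, 1149 and 636 by limma-voom, 721 lower at a minimum of 5 CPM, 217 lower against a fold of 1.5, and 591 and 244 with the block. Leaving out each library gave 424 to 1830 higher and 79 to 1085 lower calls. Without PMA replicate 1 the higher calls were 467, and without PMA replicate 2 they were 424 and the lower ones 79. Upper-quartile factors moved the median of all genes to −0.17. Of 240 recounts of the further lists, 179 stayed within 1.5 times and 61 moved, 47 of them to more calls. Against a fold of 1.5, SCARB2, RXRA and DDIT4 lost the call (edgeR adjusted p = 0.0541, 0.0572 and 0.0508). APOC2, GPAT3 and PPARD passed under all 12 alternatives. Apart from the calls given beside LIPA, ACSL4, METTL7A, NCEH1, RXRA, PPARGC1A and DDIT4, the block changed no call among the lipid genes and the 10 further lists. It was not examined for the markers and the IFIT genes.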
